A study of Mus musculus with 24 samples.

Results

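Ceramide is built from serine and a fatty acyl-CoA in a short chain of enzymes of the endoplasmic reticulum, and 10 genes of that chain were followed here in mouse liver: Sptlc1, Sptlc2, Ormdl3, Kdsr, Cers2, Cers4, Cers5, Cers6, Degs1 and Degs2. They were the array probes whose gene name equals one of these symbols, and all 10 were among the 22088 genes tested. The genes had 22 probes between them, 20 of which passed the filter on dim probes, and each gene is represented by its brightest tested probe, which was well above background on 24 of 24 arrays for every member.

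Serine palmitoyltransferase, with the subunits Sptlc1 and Sptlc2, makes the first product of the chain and is held back by the ORMDL proteins, of which Ormdl3 is one. Kdsr reduces that product to sphinganine, the ceramide synthases Cers2, Cers4, Cers5 and Cers6 attach a fatty acid of a preferred length to it, and the desaturases Degs1 and Degs2 complete ceramide or phytoceramide. In liver Cers2 is the main ceramide synthase and uses very long acyl chains, whereas Cers5 and Cers6 prefer long chains such as palmitate. Fumonisin B1 (FB1), a mycotoxin of maize fungi, inhibits ceramide synthases, so sphinganine accumulates before the blocked step.

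The livers came from 24 female mice of a sv129/C57 background aged 8 weeks, with 6 mice in each of 4 groups and 1 array per mouse. KO mice lacked both liver X receptors, LXRα (Nr1h3) and LXRβ (Nr1h2), which are oxysterol-sensing nuclear receptors that switch on lipid genes, and WT mice carried both. The groups were KO FB1, KO control, WT FB1 and WT control, where FB1 groups received 10 mg/kg body weight of FB1 daily over 1 month and control groups received water. The sources used here do not say how the KO alleles were made.

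Values are log2 of the spot signal of a 1-colour Agilent array relative to that array's 75th percentile, so they compare groups for one gene and not one gene with another. The arrays lay on 3 slides of 8 with 2 arrays of each group on each slide, 58.7% to 64.5% of spots per array were well above background, and the number of arrays limits the precision. Nr1h3 lay between -5.12 and -2.56 in KO FB1 livers and between -5.13 and -3.98 in KO control livers, against 4.71 to 4.95 in WT FB1 livers and 4.76 to 5.06 in WT control livers. Nr1h2 lay between 0.31 and 0.80 in KO FB1 livers and between 0.34 and 0.72 in KO control livers, against 4.02 to 4.22 in WT FB1 livers and 4.07 to 4.34 in WT control livers. All 10 hepatocyte markers examined, among them Alb and Apoa1, were well above background on every array. Differences are given as log2 difference ± standard error with the adjusted p of limma over all 22088 genes, and a gene is called where that p is under 0.05.

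The upstream sequences of the 4 members with the clearest response to FB1 in KO livers are shown first, since Kdsr and Cers5 were higher and Cers2 and Ormdl3 lower in the same livers. Each is the 250 bases before the annotated start, 5′ to 3′, from RefSeq on GRCm38.p6: Kdsr at chr1:106759743-106759992 on the minus strand, Cers5 at chr15:99772516-99772765 on the minus strand, Cers2 at chr3:95314940-95315189 on the plus strand and Ormdl3 at chr11:98587246-98587495 on the minus strand. RefSeq lists a second start for Cers2, whose 250 bases (chr3:95318580-95318829, 54% G and C) hold none of the motifs searched and are not shown. Capitals mark every match, on either strand, to a GC box, a CCAAT box or an E-box, whose letters are given after the sequences.
Kdsr: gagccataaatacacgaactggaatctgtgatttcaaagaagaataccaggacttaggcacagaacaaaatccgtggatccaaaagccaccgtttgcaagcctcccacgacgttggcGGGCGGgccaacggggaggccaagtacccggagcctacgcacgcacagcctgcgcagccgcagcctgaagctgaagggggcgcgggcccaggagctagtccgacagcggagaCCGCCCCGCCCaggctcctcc
Cers5: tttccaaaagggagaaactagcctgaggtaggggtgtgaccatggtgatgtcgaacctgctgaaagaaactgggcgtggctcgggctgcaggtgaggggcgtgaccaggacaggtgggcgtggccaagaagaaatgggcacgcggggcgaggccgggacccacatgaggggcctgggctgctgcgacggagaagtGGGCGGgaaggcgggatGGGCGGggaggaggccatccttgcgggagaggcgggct
Cers2: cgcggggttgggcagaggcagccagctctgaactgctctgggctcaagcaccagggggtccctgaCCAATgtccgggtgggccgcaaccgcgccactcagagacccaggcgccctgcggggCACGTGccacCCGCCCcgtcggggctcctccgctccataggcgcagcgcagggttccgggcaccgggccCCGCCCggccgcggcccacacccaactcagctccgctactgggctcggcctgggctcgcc
Ormdl3: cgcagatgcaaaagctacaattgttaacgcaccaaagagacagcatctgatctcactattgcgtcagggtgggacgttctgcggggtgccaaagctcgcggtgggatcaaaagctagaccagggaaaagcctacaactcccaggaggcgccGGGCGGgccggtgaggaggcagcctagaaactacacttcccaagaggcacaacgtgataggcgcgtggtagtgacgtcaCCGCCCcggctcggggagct

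All 4 stretches hold the GC box (letters GGGCGG), which 8 of the 11 promoters listed for the 10 members hold, against 32.7% of the 32851 promoters in the table. In the Kdsr promoter it stands 133, 21 and 16 bases before the start, the last pair overlapping, and in the Cers5 promoter 55 and 38 bases before it. The Cers2 stretch also holds a CCAAT box 185 bases and an E-box (letters CACGTG) 129 bases before the start. An E-box was found in 3 of 11 member promoters (Cers2, Cers6 and Degs1), against 6.02% of all, and a CCAAT box in 4 (Cers2, Cers6, Sptlc1 and Sptlc2), against 33.8% of all. The AGGTCA half-sites spaced by 4 bases that LXR is known to bind were found in 0 of 11, against 0.0152% of all. A sterol regulatory element (TCACNCCAC) was likewise in 0 of 11 (1.05% of all), as was an AP-1 site (TGANTCA, 6.75% of all). The share of G and C was 58.8% to 74.8% in the 4 stretches shown, against a median of 52.4% over all promoters. The motifs were chosen after the expression values were seen, and a match to their letters describes the sequence only.

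FB1 in KO livers went with changes at the first, second and ceramide synthase steps, by the brightest probe of each gene. Kdsr, Cers5 and Sptlc2 rose, Cers2 and Ormdl3 fell, and Sptlc1, Cers4, Cers6, Degs1 and Degs2 did not pass the test. The second probes of Kdsr and Sptlc2 were not called. The 5 of 10 members called stand beside 41.2% of all tested genes called in that comparison, with 3 members higher (16.5% of all genes) and 2 lower (24.6% of all genes), so the share called is near that of the whole array. The members' median difference was -0.07, against -0.08 over all genes. For 4 members the KO FB1 and KO control arrays did not overlap at all, as was the case for 18.4% of all genes.

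FB1 in WT livers called 1 of 10 members, Kdsr, where 2.89% of all genes were called. That member was higher (2.06% of all genes), and 0 members were lower (0.824% of all genes) by limma. The same 1 of 10 members had an unadjusted p under 0.05 by limma, against 3990 of all 22088 genes. The other 9 had adjusted p between 0.346 and 0.941, and the members' median difference was -0.09, against -0.03 over all genes. Kdsr was also the 1 member whose WT FB1 and WT control arrays did not overlap, a separation found for 2.33% of all genes.

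**Figure D1:**
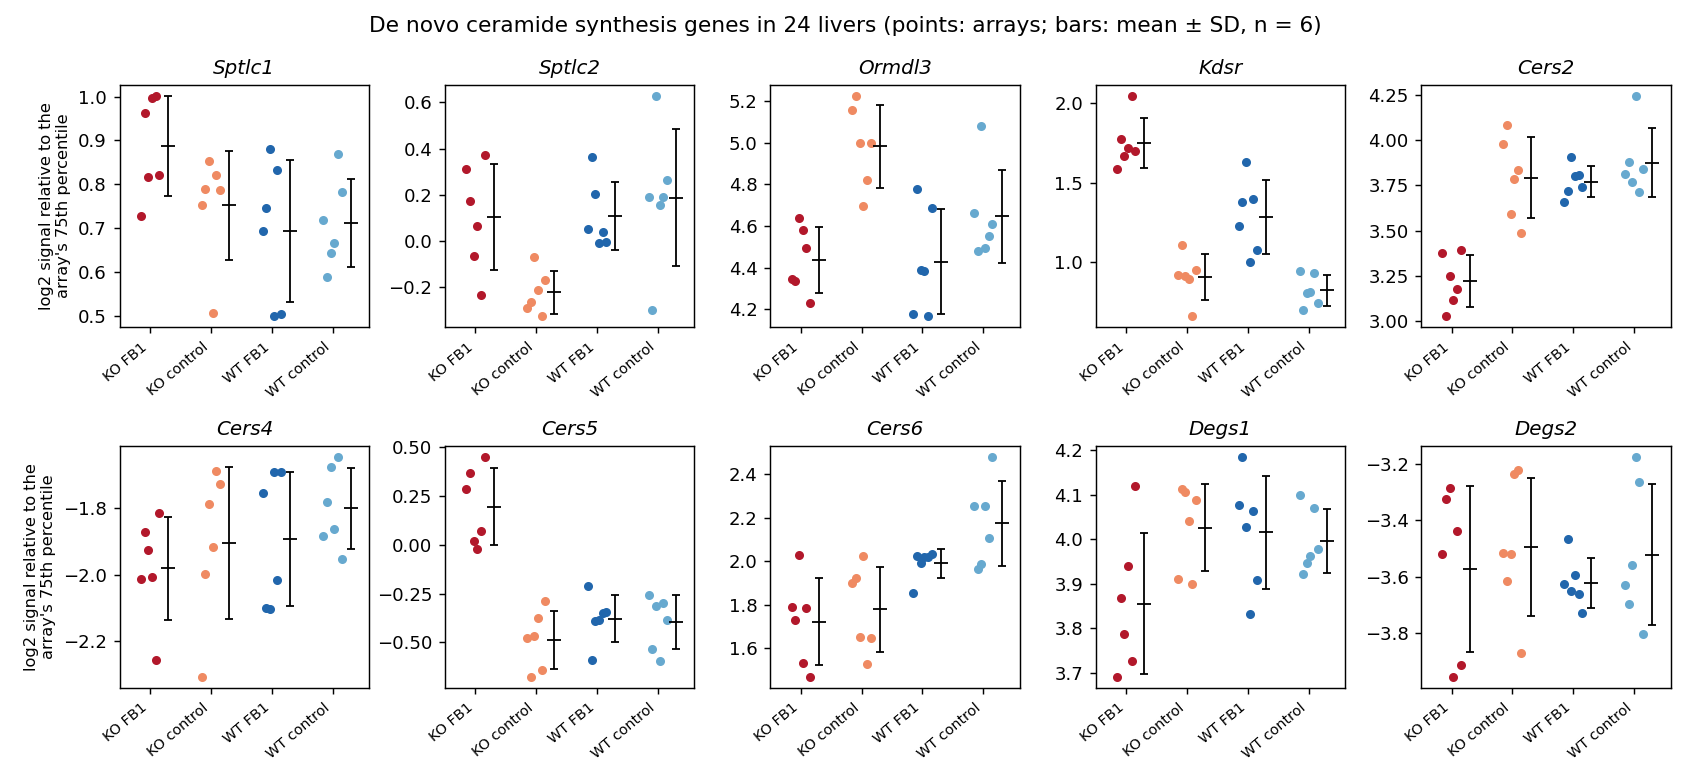
Scaled log2 signal of the 10 members (one panel each, own vertical axis) on 24 arrays, with groups KO FB1, KO control, WT FB1 and WT control along each panel; points are arrays and bars the mean ± SD of 6 arrays. The KO FB1 points of Kdsr and Cers5 all lie above the KO control points, and those of Cers2 and Ormdl3 all lie below them.

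Kdsr, the reductase that makes sphinganine, the substrate of the step FB1 blocks, had the largest rise by the brightest probe of each gene and was the one called in both genotypes by that probe. With the mean of its 2 tested probes the rise in KO livers was 0.50 ± 0.13 (adjusted p = 0.00469), below that of Cers5. Its lowest, median and highest values were 1.59, 1.71 and 2.05 in KO FB1 livers, against 0.66, 0.92 and 1.11 in KO control livers. They were 1.0, 1.30 and 1.63 in WT FB1 livers, against 0.70, 0.81 and 0.94 in WT control livers. FB1 arrays were above control arrays in both genotypes without overlap.

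The rise of Kdsr was 1.79-fold in KO livers (0.84 ± 0.10, adjusted p = 9.4e-07) and 1.38-fold in WT livers (0.46 ± 0.10, adjusted p = 0.00751). Within the 3 slides it was 0.64 to 1.13 in KO livers and 0.20 to 0.70 in WT livers, higher on every slide. The difference between the FB1 effects, KO minus WT, was 0.38 ± 0.14, short of a call (adjusted p = 0.0838), and was called without WT FB1 replicate 3 (0.45, adjusted p = 0.0325). Compared between genotypes, Kdsr was 1.38-fold higher in KO FB1 than in WT FB1 livers (0.46 ± 0.10, adjusted p = 0.000719). With the mean of both probes that difference was 0.19 ± 0.13 and was not called (adjusted p = 0.299). By the brightest probe it was 0.09 ± 0.10 apart between KO control and WT control livers, which did not pass the test (adjusted p = 0.637).

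Kdsr's second tested probe was not called where the first was, and both probe sequences are shown for that reason (first 30 of 60 bases, as deposited). The brighter probe lies on chromosome 1 at chr1:108620639-108620698 and the dimmer at chr1:108617635-108617694, both on the minus strand of mm9. They are 3004 bases apart on the genome and 3004 bases apart in the transcript, so no annotated intron lies between them, and the dimmer one is nearer the 3′ end.
Kdsr brighter probe: agcagcttaagttacagtttcttcaggagc
Kdsr dimmer probe: caagctacaaaagtcttttatagcattgtc

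The dimmer Kdsr probe had a lowest, median and highest value of -2.33, -1.95 and -1.18 in KO FB1 livers, against -2.72, -1.94 and -1.76 in KO control livers. Its FB1 difference was 0.15 ± 0.22 in KO livers (adjusted p = 0.626 over all 33417 tested probes) and 0.09 ± 0.22 in WT livers (adjusted p = 0.879), and KO FB1 against WT FB1 livers gave -0.09 ± 0.22 (adjusted p = 0.796). The spread of its arrays was wider than that of the brighter probe, with a 95% interval in KO livers of -0.31 to 0.62. Whether the probes differ from each other was not tested. With the mean of both probes Kdsr was not called in WT livers (0.28 ± 0.13, adjusted p = 0.279).

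Cers5, a synthase of long-chain ceramides, rose in KO livers and not detectably in WT livers. Its lowest, median and highest values were -0.02, 0.18 and 0.45 in KO FB1 livers, against -0.68, -0.47 and -0.29 in KO control livers. They were -0.59, -0.37 and -0.21 in WT FB1 livers, against -0.59, -0.35 and -0.26 in WT control livers. All 6 KO FB1 arrays lay above every array of the other 3 groups. The KO FB1 and KO control arrays did not overlap for 18.4% of all genes, and the share separated from all 3 groups was not counted.

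Cers5 was 1.60-fold higher with FB1 in KO livers (0.68 ± 0.09, adjusted p = 5.4e-06). In WT livers its difference was 0.02 ± 0.09, with a 95% interval of -0.17 to 0.21 (adjusted p = 0.941). The FB1 effects differed between genotypes by 0.66 ± 0.13 (adjusted p = 0.00336), and the difference kept its call with any single array left out, at 0.61 to 0.71. Within slides the FB1 effect in KO livers was 0.38 to 0.89. Between genotypes Cers5 was 1.49-fold higher in KO FB1 than in WT FB1 livers (0.57 ± 0.09, adjusted p = 3.9e-05), and in KO control against WT control livers it differed by -0.09 ± 0.09 (adjusted p = 0.587). Cers5 has 1 probe on the array, on chromosome 15, so the rise has no second probe to set beside it.

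Cers2, the main hepatic synthase of very-long-chain ceramides, fell in KO livers. Its lowest, median and highest values were 3.03, 3.21 and 3.39 in KO FB1 livers, against 3.49, 3.81 and 4.08 in KO control livers. They were 3.66, 3.77 and 3.91 in WT FB1 livers, against 3.71, 3.83 and 4.25 in WT control livers. The KO FB1 arrays lay below all 18 others, and the share of all genes with such a separation was not counted.

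Cers2 was 1.49-fold lower with FB1 in KO livers (-0.57 ± 0.10, adjusted p = 9.6e-05), and within slides the difference was -0.61 to -0.55. In WT livers it was -0.11 ± 0.10 (adjusted p = 0.607). Cers2 was 1.46-fold lower in KO FB1 than in WT FB1 livers (-0.55 ± 0.10, adjusted p = 0.00016), and in KO control against WT control livers the difference was -0.08 ± 0.10 (adjusted p = 0.661). The second Cers2 probe, nearer the 5′ end of the transcript, fell in KO livers too (-0.68 ± 0.10, adjusted p = 1.1e-05) and was -0.26 ± 0.10 in WT livers (adjusted p = 0.150).

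The FB1 effects on Cers2 differed between genotypes by -0.47 ± 0.14 (adjusted p = 0.0378), with the second probe at -0.41 ± 0.14 (adjusted p = 0.0620). This call rests close to the threshold: it was lost on leaving out any one of 15 of the 24 arrays, with -0.47 to -0.41 and adjusted p of 0.0504 to 0.0709. Those arrays were replicates 2 and 4 of KO FB1, 1, 2, 4 and 5 of KO control, 3, 4, 5 and 6 of WT FB1 and 1, 2, 3, 5 and 6 of WT control. It was also lost with the replicate number as a block (adjusted p = 0.0671), with quantile normalisation (0.0599), with the authors' values (0.0807) and without a filter on dim probes (0.0790).

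**Figure D2:**
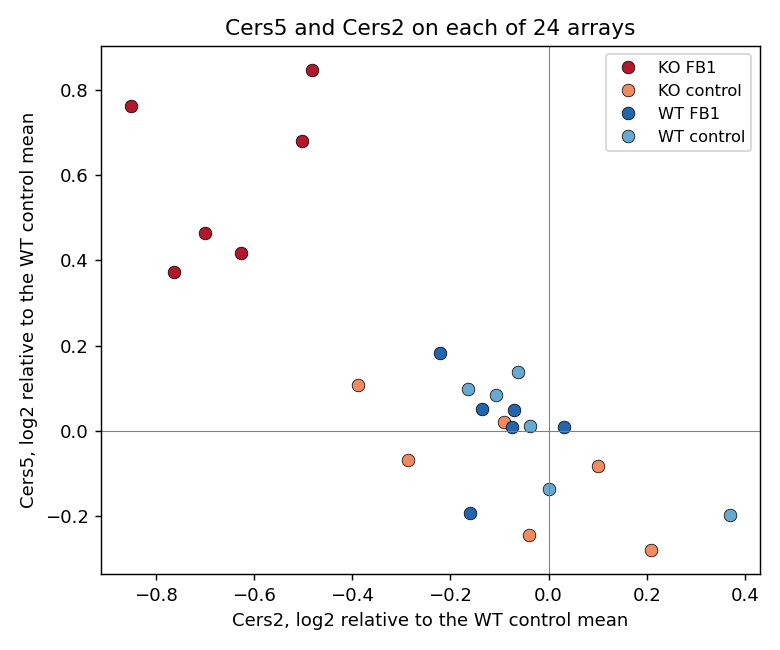
Each of 24 arrays by its Cers2 value (horizontal) and Cers5 value (vertical), both log2 relative to the mean of the 6 WT control arrays, coloured by group. The 6 KO FB1 arrays lie to the upper left of all others, with lower Cers2 and higher Cers5.

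Set against each other within each array, the change of Cers5 minus that of Cers2 was 1.25 with FB1 in KO livers and 0.12 in WT livers. Relative to the WT control mean that difference was 1.04 to 1.61 on KO FB1 arrays, against -0.49 to 0.50 on KO control arrays, and -0.03 to 0.40 on WT FB1 arrays, against -0.57 to 0.26 on WT control arrays. The KO FB1 arrays thus stood apart from the KO control arrays, while the WT groups overlapped. Cers5 minus Cers4 also separated the KO groups, by 0.76, and Cers6 minus Cers2 changed by 0.52 with overlap. These within-array differences use the same arrays as the tests above and are given as a description.

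Cers6, the other long-chain synthase measured, was called between genotypes by its brightest probe and in neither comparison of FB1 with control. Its lowest, median and highest values were 1.47, 1.76 and 2.03 in KO FB1 livers and 1.53, 1.77 and 2.02 in KO control livers. In WT FB1 livers they were 1.85, 2.02 and 2.03, and in WT control livers 1.96, 2.18 and 2.48. The groups overlapped in each comparison.

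Cers6 was 1.32-fold lower in KO control than in WT control livers (-0.40 ± 0.10, adjusted p = 0.00889), and lower in KO FB1 than in WT FB1 livers (-0.27 ± 0.10, adjusted p = 0.0465). The second call was lost on leaving out any one of 14 arrays, at -0.28 to -0.22 with adjusted p of 0.0502 to 0.122. These were replicates 1, 2, 4, 5 and 6 of KO FB1, 1 of KO control, 2, 3, 4, 5 and 6 of WT FB1 and 1, 4 and 5 of WT control. It was also lost with the replicate number as a block (adjusted p = 0.0808). The FB1 differences of Cers6 were -0.06 ± 0.10 in KO livers (adjusted p = 0.690) and -0.18 ± 0.10 in WT livers (adjusted p = 0.346). Its other 2 tested probes passed in no comparison, and with the mean of the 3 tested probes Cers6 was not called without FB1 (-0.23 ± 0.10, adjusted p = 0.148) or with it (-0.06 ± 0.10, adjusted p = 0.708). Cers4, whose product classes overlap with those of Cers2, passed in no comparison by any of its 3 probes, with FB1 differences of -0.08 ± 0.10 in KO livers and -0.09 ± 0.10 in WT livers.

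At the first step, the regulator Ormdl3 fell by both probes with FB1 in KO livers, and the catalytic subunit Sptlc2 rose by its brighter probe alone. Ormdl3 had a lowest, median and highest value of 4.23, 4.42 and 4.64 in KO FB1 livers, against 4.69, 5.0 and 5.23 in KO control livers. Its values were 4.17, 4.39 and 4.78 in WT FB1 livers, against 4.48, 4.58 and 5.08 in WT control livers. KO FB1 arrays all lay below KO control arrays, and the WT groups overlapped.

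Ormdl3 was 1.46-fold lower with FB1 in KO livers (-0.55 ± 0.12, adjusted p = 0.001), by -0.67 to -0.47 within slides, and its second probe was -0.70 ± 0.14 (adjusted p = 0.000373). In WT livers the difference was -0.22 ± 0.12 (adjusted p = 0.347). The FB1 effects differed by -0.33 ± 0.17, which did not pass the test (adjusted p = 0.241), so the fall in KO livers is not shown to differ from the WT value. KO control livers had 0.34 ± 0.12 more Ormdl3 signal than WT control livers on the log2 scale, short of a call (adjusted p = 0.0642). That difference passed without KO control replicate 4 (0.39, adjusted p = 0.0349), without WT control replicate 3 (0.42, adjusted p = 0.0140) or without WT FB1 replicate 2 (0.34, adjusted p = 0.04999), and with quantile normalisation (0.40, adjusted p = 0.0186). KO FB1 and WT FB1 livers differed by 0.01 ± 0.12 (adjusted p = 0.972).

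Sptlc2, the subunit that carries the active site of serine palmitoyltransferase, had a lowest, median and highest value of -0.23, 0.12 and 0.37 in KO FB1 livers, against -0.32, -0.24 and -0.07 in KO control livers. In WT FB1 livers the values were -0.01, 0.05 and 0.36, against -0.30, 0.19 and 0.63 in WT control livers. KO control was the low group, and it overlapped with KO FB1 and WT control but lay wholly below WT FB1.

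Sptlc2 was 1.25-fold higher with FB1 in KO livers (0.33 ± 0.12, adjusted p = 0.0304), and 1.33-fold lower in KO control than in WT control livers (-0.41 ± 0.12, adjusted p = 0.0193). Both comparisons use the same KO control arrays. KO FB1 and WT FB1 livers did not pass the test (-0.00 ± 0.12, adjusted p = 0.985). The FB1 call in KO livers was lost on leaving out replicate 1, 2 or 6 of KO FB1 or replicate 1, 2 or 5 of KO control, at 0.27 to 0.32 with adjusted p of 0.0539 to 0.0823. The call between KO control and WT control livers was lost without WT control replicate 3 (-0.32, adjusted p = 0.0558). Within slides the FB1 effect in KO livers was 0.17 to 0.58, and the genotype difference without FB1 was -0.62 to -0.14. A second Sptlc2 probe nearer the 3′ end was not called for FB1 in KO livers (-0.11 ± 0.20, adjusted p = 0.696), and with the mean of both probes the FB1 difference in KO livers was 0.11 ± 0.13, not called (adjusted p = 0.555). The second probe alone was at -0.41 ± 0.20 between KO control and WT control livers (adjusted p = 0.199) and lower in KO FB1 than in WT FB1 livers (-0.56 ± 0.20, adjusted p = 0.0369).

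Sptlc1, the subunit that pairs with Sptlc2, passed in no comparison. It was highest in KO FB1 livers, at 0.73, 0.89 and 1.0 (lowest, median and highest), against 0.51, 0.79 and 0.85 in KO control livers, with overlap. Its nearest approach to a call was between KO FB1 and WT FB1 livers (0.19 ± 0.08, adjusted p = 0.0599). That value passed without KO FB1 replicate 1 (0.23, adjusted p = 0.0396), KO control replicate 4 (0.19, adjusted p = 0.0450), WT FB1 replicate 3 (0.23, adjusted p = 0.0305) or WT FB1 replicate 5 (0.22, adjusted p = 0.0417). It also passed with the slide as a block (adjusted p = 0.0296), and the second Sptlc1 probe was called there (0.29 ± 0.10, adjusted p = 0.0281).

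At the last step, Degs1, which introduces the double bond of ceramide, had values of 3.69, 3.83 and 4.12 in KO FB1 livers (lowest, median and highest), against 3.90, 4.06 and 4.11 in KO control livers. Its FB1 difference was -0.17 ± 0.07 in KO livers (adjusted p = 0.0684) and 0.02 ± 0.07 in WT livers (adjusted p = 0.924). Without KO FB1 replicate 6, the highest of its group, it was called in KO livers (-0.22, adjusted p = 0.0154) and between KO FB1 and WT FB1 livers (-0.21, adjusted p = 0.0250). Degs2, which also acts as a hydroxylase, passed in no comparison by its brighter probe, with FB1 differences of -0.08 ± 0.13 in KO livers and -0.10 ± 0.13 in WT livers. Its dimmer probe was above background on 22 arrays, all 6 of each KO group but 5 of 6 in WT FB1 and in WT control. It entered the test through the KO groups alone, so its higher value in KO FB1 than in WT FB1 livers (0.56 ± 0.17) is given with no call.

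**Figure D3:**
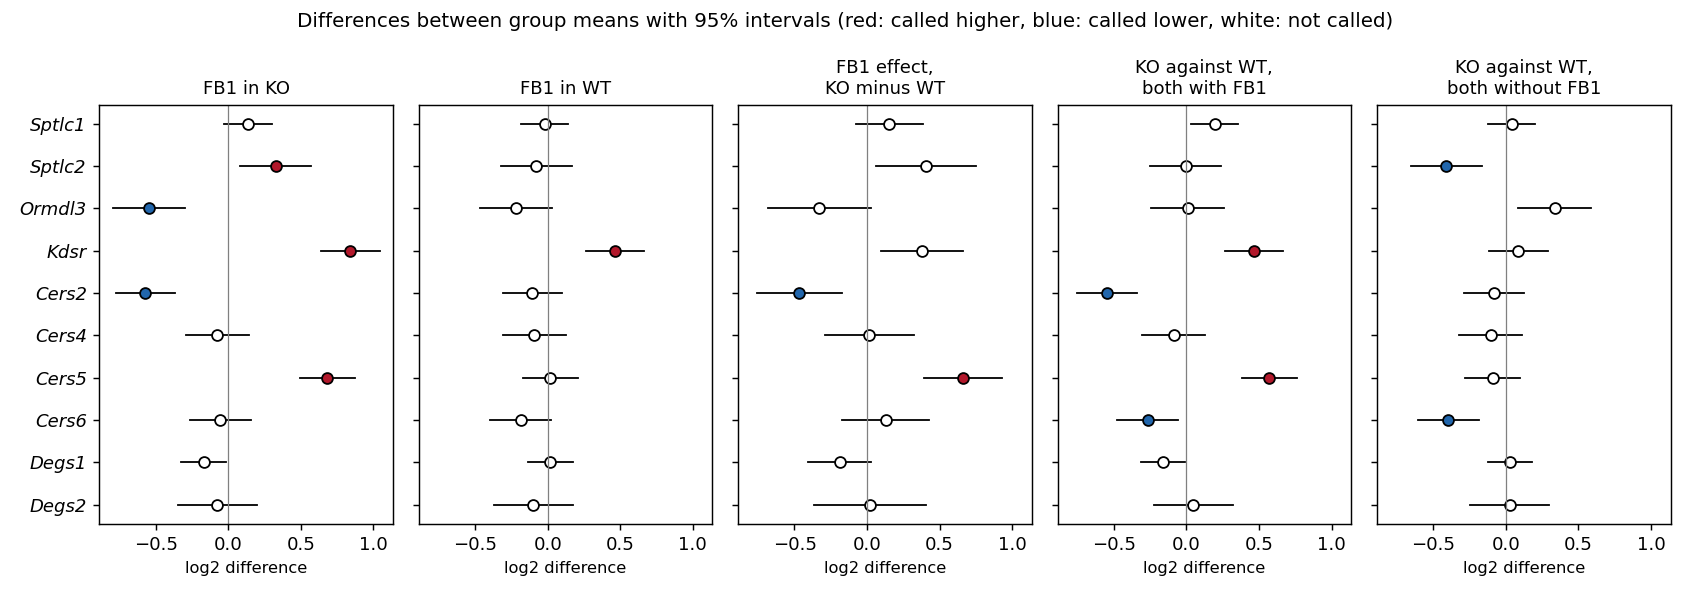
Log2 difference of each member (rows, in pathway order) with its 95% interval in the 5 comparisons (panels); red points were called higher, blue points called lower and white points not called. Called members number 5 for FB1 in KO, 1 for FB1 in WT, 2 for the difference of the FB1 effects, 4 for KO against WT with FB1 and 2 for KO against WT without FB1.

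The genotype alone called 2 of 10 members, Cers6 and Sptlc2, against 15.2% of all genes, with 0 higher (7.21% of all genes) and 2 lower (8.02% of all genes) by limma. At an unadjusted p under 0.05 there were 3 of 10, with Ormdl3 the higher one, against 5917 of all 22088 genes. For 0 members did KO control and WT control arrays separate without overlap, against 7.93% of all genes. With FB1 in both genotypes 4 of 10 members were called, against 32.8% of all genes: Kdsr and Cers5 higher (14.5% of all genes) and Cers2 and Cers6 lower (18.3% of all genes). For 2 of them, Cers5 and Cers2, KO FB1 and WT FB1 arrays did not overlap (15.2% of all genes). This comparison shares its KO FB1 arrays with the one of FB1 in KO livers.

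The FB1 effect itself differed between genotypes for 2 of 10 members, against 9.3% of all genes: Cers5 on the higher side (4.46% of all genes) and Cers2 on the lower side (4.84% of all genes). For the other 8 the adjusted p was 0.0838 to 0.963. Kdsr (0.38), Sptlc2 (0.40 ± 0.17, adjusted p = 0.129) and Ormdl3 (-0.33) were the largest of these, with 95% intervals of 0.09 to 0.66 for Kdsr, 0.06 to 0.75 for Sptlc2 and -0.68 to 0.03 for Ormdl3. Sptlc2 passed here without WT control replicate 2 (0.50, adjusted p = 0.0359).

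**Figure D4:**
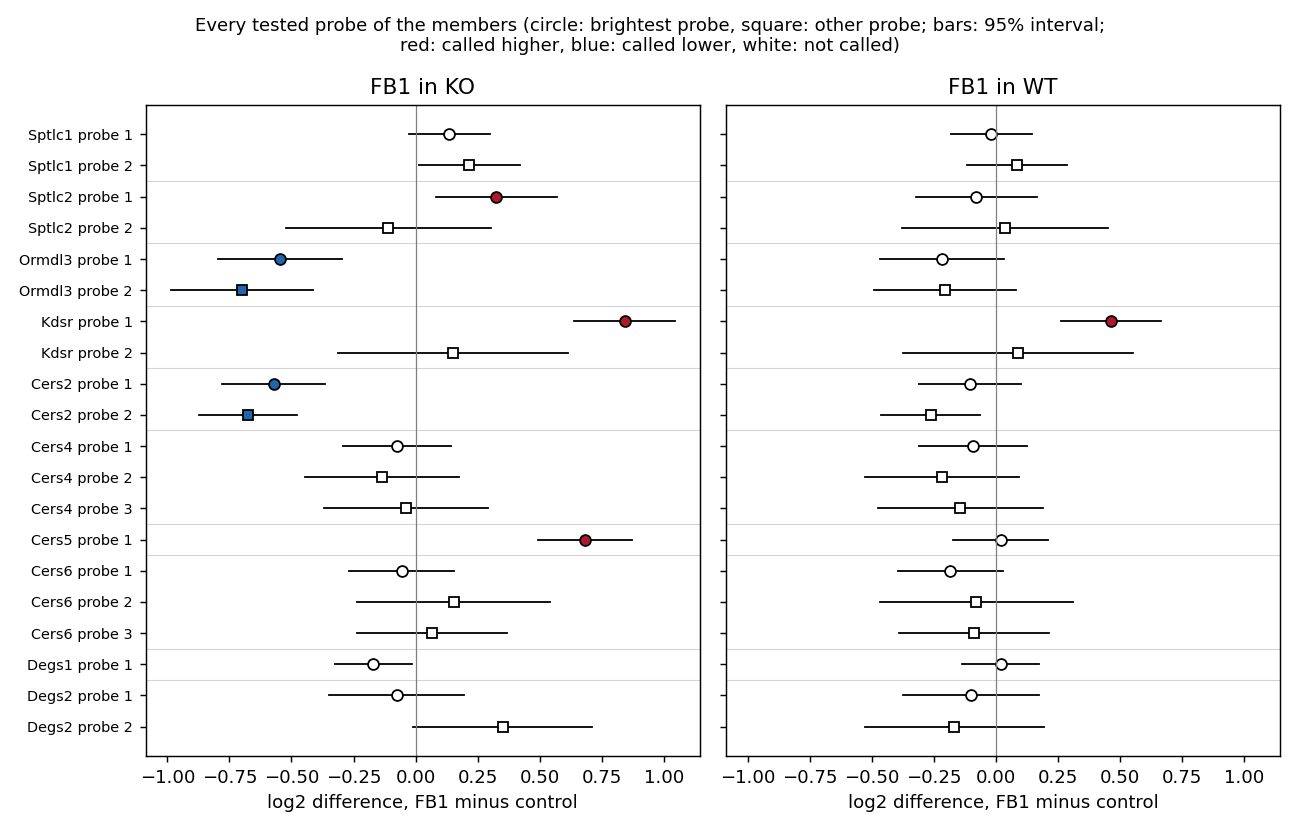
FB1 minus control log2 difference with its 95% interval for each of the 20 tested probes of the members, in KO livers (left) and WT livers (right); circles are the brightest probe of a gene, squares its other probes, red called higher, blue called lower and white not called. Both Cers2 probes and both Ormdl3 probes fell in KO livers, whereas the second probes of Kdsr and Sptlc2 were not called.

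Of 8 members with more than 1 tested probe, Cers2 and Ormdl3 were the pair whose probes were called alike for FB1 in KO livers. The called difference of Kdsr and that of Sptlc2 rested on 1 of 2 probes. A dim probe each of Kdsr and Cers6, well above background on 1 array, was not tested.

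The genes around the members were followed in lists. Of the 8 other genes of the chain 5 were tested, and with FB1 in KO livers 4 of these fell and 0 rose by limma, also at an unadjusted p under 0.05. Ormdl2, a second ORMDL regulator, fell by 0.33 ± 0.07 (adjusted p = 0.00105). Sptlc3, an alternative catalytic subunit, fell by 0.43 ± 0.09 (adjusted p = 0.000918), and Rtn4, which binds serine palmitoyltransferase, fell by 0.43 ± 0.11 (adjusted p = 0.00247). Ormdl1 was the fourth, and the small subunit Sptssa did not pass (-0.09 ± 0.09, adjusted p = 0.426). The list's median was -0.33, against -0.08 over all genes. In WT livers 0 of the 5 were called by limma or had an unadjusted p under 0.05. Counts of these lists stand against 41.2% of all genes called with FB1 in KO livers and 2.89% in WT livers. At an unadjusted p under 0.05 by limma, 10850 of all 22088 genes passed in KO livers and 3990 in WT livers.

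Serine supply split in KO livers: the 3 enzymes of serine synthesis rose and the 2 hydroxymethyltransferases, which exchange serine and glycine, fell. Phgdh, the first enzyme of serine synthesis, rose 2.81-fold (1.49 ± 0.21, adjusted p = 8.9e-06), Psat1 rose 2.67-fold (1.42 ± 0.22, adjusted p = 2.8e-05), and Shmt1 was 1.62-fold lower (-0.70 ± 0.09, adjusted p = 1.8e-06). Phgdh was 0.61 ± 0.21 with FB1 in WT livers, short of a call (adjusted p = 0.119). The FB1 effects differed between genotypes for Psat1 (1.04 ± 0.31, adjusted p = 0.0364) and Shmt1 (-0.44 ± 0.12, adjusted p = 0.0242). Psat1 was also lower in KO control than in WT control livers (-0.83 ± 0.22, adjusted p = 0.0111), a comparison that shares its KO control arrays with that of FB1 in KO livers. Between KO FB1 and WT FB1 livers 0 of these 5 genes were called higher and 2 lower, where 32.8% of all genes were called. Phgdh (means -1.87 and -2.22) and Psat1 (-2.32 and -2.53) were not called there.

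Among genes that supply acyl-CoA, FB1 in KO livers called 4 of 13 lower and 1 higher, with Tecr, the last reductase of fatty acid elongation, at -0.62 ± 0.10 (adjusted p = 3.7e-05), Acsl1 at -0.81 ± 0.17 (adjusted p = 0.00074) and Elovl3, an elongase of very long chains, at -2.68 ± 0.64 (adjusted p = 0.00189). The mean of Elovl3 was -0.03 in KO control livers, against -2.70 in KO FB1, -2.21 in WT FB1 and -1.58 in WT control livers. Its FB1 effects differed between genotypes by -2.05 ± 0.90, not called (adjusted p = 0.159). KO FB1 and WT FB1 livers were not called apart for it either (-0.49 ± 0.64, adjusted p = 0.589). Between genotypes 7 of 13 were lower in KO control than in WT control livers and 0 higher by limma, where 15.2% of all genes were called. Scd1, the stearoyl-CoA desaturase and a known LXR-responsive gene, was 18.7-fold lower there (-4.22 ± 0.27, adjusted p = 3.2e-11), with Acsl5 (-0.56 ± 0.09, adjusted p = 0.000112) and Elovl6 (-1.39 ± 0.24, adjusted p = 0.000218) next. With FB1 in both genotypes 7 were lower and 2 higher, where 32.8% of all genes were called, and Scd1 was 8.71-fold lower (adjusted p = 4.9e-09).

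Of genes that consume ceramide, 4 of 8 rose and 2 fell with FB1 in KO livers. B4galt5, a lactosylceramide synthase, rose 2.31-fold (1.21 ± 0.20, adjusted p = 5.1e-05), Cerk, which phosphorylates ceramide, rose 1.65-fold (0.73 ± 0.13, adjusted p = 0.000118), and the sphingomyelin synthase Sgms2 was 1.51-fold lower (-0.60 ± 0.13, adjusted p = 0.000695). Of genes that release ceramide, 2 of 10 rose and 3 fell. Smpd3, a neutral sphingomyelinase, rose 12-fold (3.59 ± 0.47, adjusted p = 3.8e-06), the ceramidase Acer3 rose 1.36-fold (0.45 ± 0.09, adjusted p = 0.000626), and Smpd2 was 1.47-fold lower (-0.55 ± 0.12, adjusted p = 0.000803). The FB1 effects on Smpd3 differed between genotypes by 3.09 ± 0.66 (adjusted p = 0.0058), and its WT value was 0.50 ± 0.47 (adjusted p = 0.608). Both Smpd3 (-1.48 ± 0.47, adjusted p = 0.0329) and Acer3 (-0.46 ± 0.09, adjusted p = 0.00127) were lower in KO control than in WT control livers, and these comparisons share the KO control arrays. Between KO FB1 and WT FB1 livers Smpd3 was 1.61 ± 0.47 (adjusted p = 0.0105) and Acer3 -0.01 ± 0.09 (adjusted p = 0.956).

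All 5 tested genes of sphingoid base phosphates were called with FB1 in KO livers. Sphk1, a kinase that phosphorylates sphingoid bases, rose 2.16-fold (1.11 ± 0.19, adjusted p = 7.9e-05), and 4 fell, among them Sgpp1 (-0.21 ± 0.06, adjusted p = 0.00454) and the lyase Sgpl1 (-0.40 ± 0.11, adjusted p = 0.0049). Sphk1 was higher in KO control than in WT control livers as well (1.23 ± 0.19, adjusted p = 4.4e-05). Over the 46 tested genes of these 6 lists, limma called 30 with FB1 in KO livers (41.2% of all genes). In WT livers it called 0 (2.89% of all genes). An unadjusted p under 0.05 was found there for 7 of the 46, against 3990 of all 22088 genes. By limma the FB1 effects differed between genotypes for 9 of the 46 (9.3% of all genes). Most of the 30 calls in KO livers are therefore not shown to differ from the WT value.

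**Figure D5:**
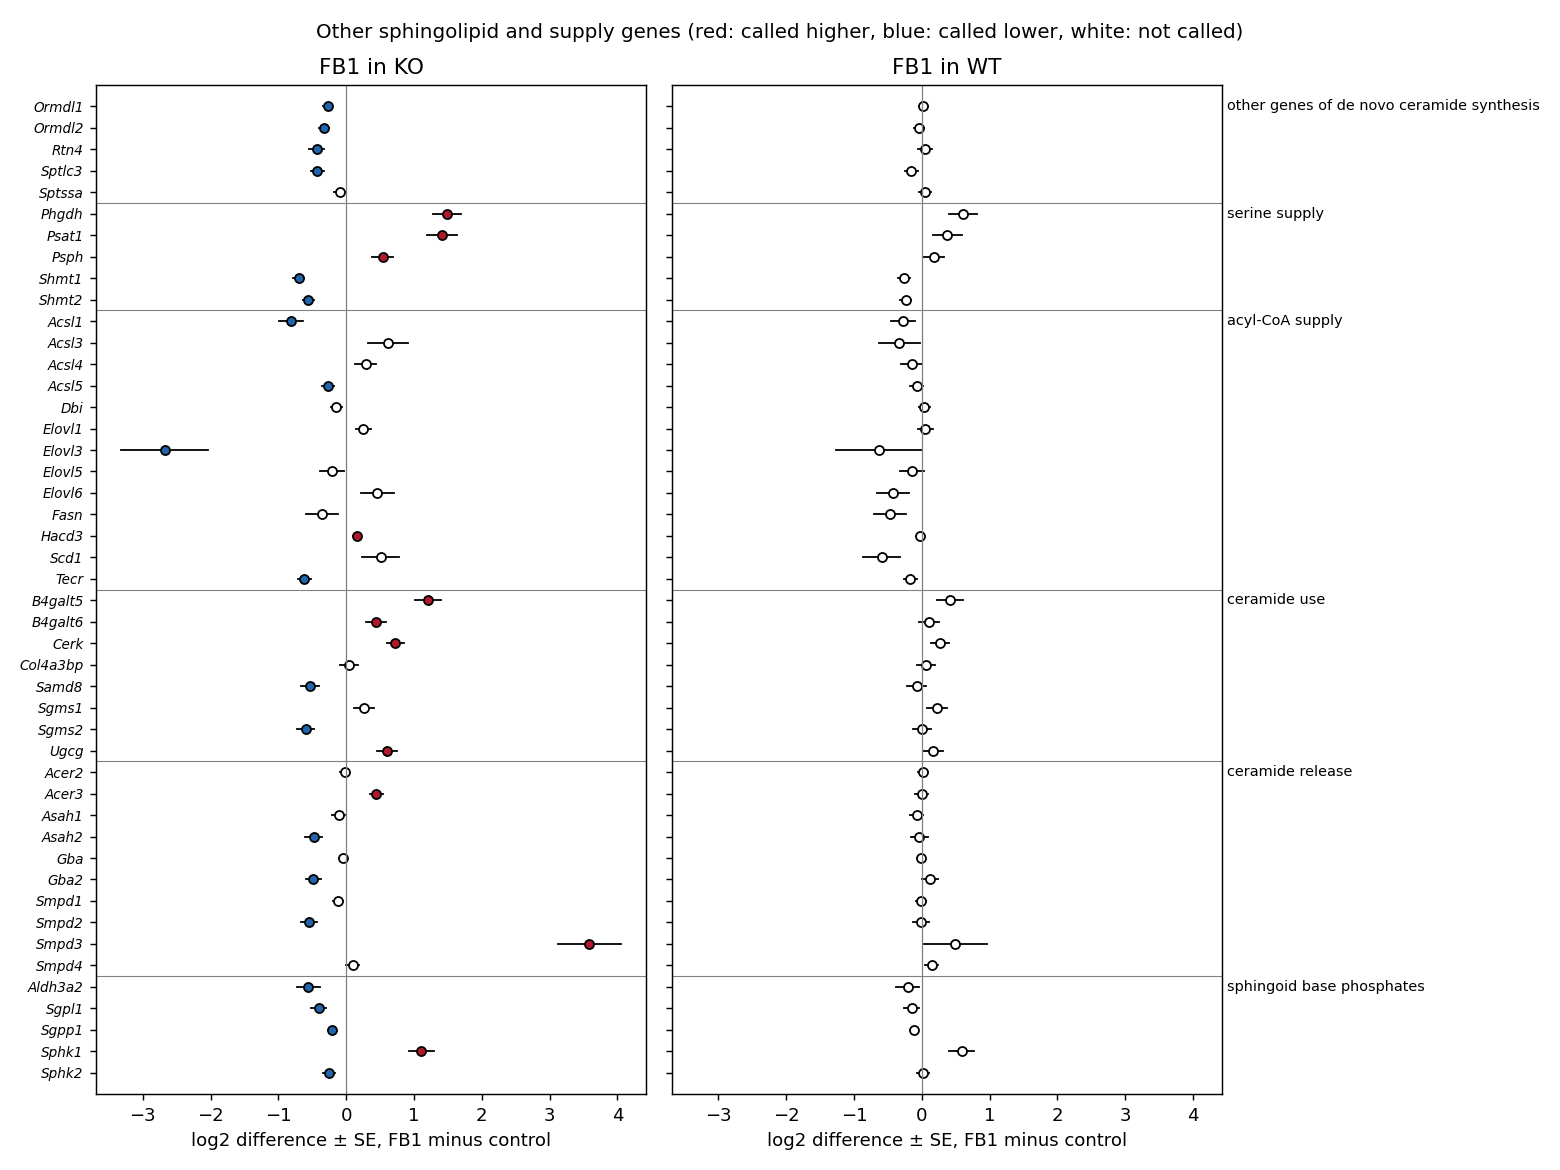
FB1 minus control log2 difference ± SE of 46 genes around the members, in KO livers (left) and WT livers (right), grouped by list; red called higher, blue called lower, white not called. In KO livers the 3 serine synthesis genes lie to the right of 0 and 4 of the 5 other genes of the chain are called lower, while no point is called in WT livers.

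Markers of other liver cells moved in the same comparisons, and in whole liver fewer cells of a type and less RNA per cell cannot be told apart. Over all genes limma called 41.2% with FB1 in KO livers and 2.89% in WT livers. A summed level below is the log2 of a list's summed linear values, so its brightest genes weigh most. With FB1 in KO livers 8 of 8 cell division genes rose, with a summed level (log2) of 2.79 to 4.55 in KO FB1 livers, against 0.82 to 1.59 in KO control livers. All 8 rose in WT livers too, at 2.29 to 3.96 in WT FB1 livers, against -0.52 to 2.07 in WT control livers. Bub1 was well above background on 3 of 6 WT control arrays, against 6 of 6 in each FB1 group, and Ccnb1 and Aurkb were on 5 of 6 WT control arrays. The filter on dim probes let Bub1 in by the FB1 groups, where it is high. Its rise is therefore given with no call, though both counts include it. Also higher with FB1 in WT livers, where Kdsr was called, were 2 of 8 stellate cell markers (summed level 4.08 to 4.81 in WT FB1 livers, against 3.98 to 4.12 in WT control livers). The same held for 1 of 10 macrophage and monocyte markers, Trem2 (3.41-fold, adjusted p = 0.00102), with a summed level of 7.28 to 7.76 in WT FB1 livers, against 6.53 to 7.83 in WT control livers. It held too for 1 of 6 neutrophil markers, Camp (2.74-fold, adjusted p = 0.0407), with a summed level of 3.28 to 5.31 in WT FB1 livers, against 1.84 to 4.14 in WT control livers. Of 7 sinusoidal endothelium markers 5 fell in KO livers, with a summed level of 4.35 to 4.92 in KO FB1 livers, against 5.09 to 5.76 in KO control livers. Of 8 stellate cell markers 4 rose, at 4.72 to 5.36 in KO FB1 livers, against 4.10 to 4.41 in KO control livers. Of 10 macrophage and monocyte markers 4 rose, at 6.89 to 7.32 in KO FB1 livers, against 5.96 to 6.49 in KO control livers. Of 10 hepatocyte markers 4 fell, among them Cps1 (-0.83 ± 0.14), while the summed level overlapped at 11.7 to 12.1 in KO FB1 livers and 11.9 to 12.2 in KO control livers. Every tested marker of these 5 lists was well above background on all KO arrays, except Bub1 on 5 of 6 KO control arrays. Of the remaining lists in KO livers 3 of 6 lymphocyte and 1 of 6 cholangiocyte markers rose, 1 of 6 neutrophil markers fell and 0 of 4 erythroid markers were called. The called neutrophil marker went against its list, whose median difference was 0.55. The summed neutrophil level was 2.39 to 3.10 in KO FB1 livers, against 1.87 to 2.79 in KO control livers. Markers moved between genotypes too, where 32.8% of all genes were called with FB1 and 15.2% without it. With FB1, all 6 neutrophil markers were lower in KO livers, with a summed level of 2.39 to 3.10 in KO FB1 livers, against 3.28 to 5.31 in WT FB1 livers. Of the macrophage and monocyte markers 4 of 10 were higher and 5 lower there, at 6.89 to 7.32 in KO FB1 livers, against 7.28 to 7.76 in WT FB1 livers, with Cd5l 705-fold lower (-9.46 ± 0.28). Of the stellate cell markers 5 of 8 were higher and 1 lower, at 4.72 to 5.36 in KO FB1 livers, against 4.08 to 4.81 in WT FB1 livers, and 4 of 7 sinusoidal endothelium markers were lower, at 4.35 to 4.92 in KO FB1 livers, against 4.87 to 5.84 in WT FB1 livers. Without FB1, 2 of 10 macrophage and monocyte markers were higher and 5 lower, at 5.96 to 6.49 in KO control livers, against 6.53 to 7.83 in WT control livers, and 2 of 6 neutrophil markers were lower, at 1.87 to 2.79 in KO control livers, against 1.84 to 4.14 in WT control livers. The part of these cell markers in the members' differences was not tested.

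For each member called in any comparison, the genes that tracked it most closely over the 24 arrays were found by the root mean square difference of the centred log2 values. Cers5 had the closest ones: Slc25a24, a mitochondrial carrier, at 0.0921, St3gal2, a sialyltransferase, at 0.108 and the ion channel gene Piezo1 at 0.112, where the median over all genes was 0.423 and the SD of Cers5 itself 0.310. Cers2 was tracked most closely by Sdha, a subunit of succinate dehydrogenase, at 0.149, and then by Slc31a1 and Uhrf1bp1l. Ormdl3 was tracked by an array feature named NAP019288-001 at 0.115 and by Acbd4 and Agpat2, an acyltransferase of phospholipid synthesis. For Kdsr the closest were Cc2d1b at 0.206, Gm20559 and Kctd2, for Sptlc2 Pi4k2b at 0.150, Rnpep and Ppil1, and for Cers6 Fkbp8 at 0.154, Scpep1 and Tm6sf2. These values include the group differences and are a description of the 24 arrays. The SD was 0.405 for Kdsr, 0.309 for Cers2, 0.303 for Ormdl3, 0.251 for Sptlc2 and 0.245 for Cers6. For these members the median over all genes was 0.345 to 0.497. With FB1 in WT livers the 3 genes closest to Kdsr differed by 0.10 to 0.24, against 0.46 for Kdsr.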

How the data were processed

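Liver RNA of 24 mice was hybridised to 1-colour Agilent arrays (Cy3). The deposited scanner files give each spot's intensity, processed by Agilent Feature Extraction 10.10.1.1 per the submitters' processing notes, with no scaling across arrays. The authors also deposited log2 values for 33417 probes (column medians 7.858 to 7.863), 32012 of them also tested here; those notes name limma, and the sources used here give neither its filter nor its background step. Each of the 24 deposited columns matched its own array best.

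Intensities were scaled to each array's 75th percentile and taken to log2. Outlier spots (64 to 121 per array) were set to missing. Tested probes were those called well above background in every remaining spot of some group, with 4 or more values in each group, which gave 33417 probes and 22088 genes, each gene by its brightest probe. Limma 3.58.1 (R 4.3.3, data.table, version 1.17.8) fitted 4 group means over 24 arrays for 5 comparisons, with Benjamini-Hochberg adjustment. Probes were fitted likewise. The fit was tested on simulated data. Figures used Python and matplotlib.

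Members and lists were chosen with earlier results of these data known. Named genes were all members, up to 3 called genes of a list and comparison by adjusted p, and the 3 closest genes of a called member; others named in a list, such as genes that did not pass, were picked with their values in view. The alternatives comprised quantile normalisation, normexp (offset 50), the authors' values, filters, outlier spots kept, mean of probes, slide or replicate blocks, single slides, fewer groups, an intensity trend, array weights, a 1.5-fold threshold and leaving out each array. Motif matches used the RefSeq promoter table (GRCm38.p6), and probe coordinates are those of the files (mm9).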

Additional observations from a re-analysis of the deposited data

Results flagged for a closer look

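Among the 40 combinations of a member and a group of 6 arrays, 4 held an array far from the others by Dixon's criterion, and chance gives about 1 in 20. Cers2 stood at 4.25 in WT control replicate 4, against a next highest value of 3.88. Ormdl3 stood at 5.08 in WT control replicate 3, against a next highest value of 4.66. Cers6 was lowest in WT FB1 replicate 1 at 1.85, against a next lowest value of 1.99, and Sptlc1 was lowest in KO control replicate 4 at 0.51, against a next lowest value of 0.75. The FB1 effect differed between KO and WT livers for Cers5 by 0.66 ± 0.13 (adjusted p = 0.00336 by limma) and for Cers2 by -0.47 ± 0.14 (adjusted p = 0.0378 by limma).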

How the results depend on the processing

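No called difference changed sign in any alternative or on any slide alone, and 20 of 424 values of uncalled differences in other fits did, none above 0.14 in size. On single slides 27 of 108 uncalled differences changed sign, by up to 0.35, and 14 of 42 called ones moved by more than the spread between replicates. For the difference of the FB1 effects the limit used was wider than that spread. Of 166 values of called differences in other fits 15 lost the call, and of 424 uncalled ones 5 gained it; leave-one-out results stand beside the members above. By the count of members called, FB1 in WT gave 0 instead of 1 with the mean of probes (2 at an unadjusted p under 0.05 by limma) and 0 with a 1.5-fold threshold. FB1 in KO gave 4 instead of 5 with the mean of probes, without Sptlc2, and 2 with that threshold (Kdsr and Cers5). KO against WT without FB1 gave 1 instead of 2 with the mean of probes and 0 with the threshold, and KO against WT with FB1 gave 0 instead of 4 with the threshold; with the mean of probes it gave 4, with Sptlc1 and Degs2 in place of Kdsr and Cers6, the Degs2 value resting on a dimmer probe that passed the filter through the KO groups alone. The difference of the FB1 effects gave 1 instead of 2 with quantile normalisation, the authors' values, no filter, the threshold or the replicate number as a block, and 1 to 2 on leaving out one array. Same-numbered deviations correlated at -0.2 to 0.24. That does not decide whether the replicate numbers pair the mice, because different-numbered ones were not set beside them. The main fit used no pairing, and the replicate block otherwise ended 1 member's call, Cers6 in KO against WT with FB1. Over all 22088 genes, the mean of probes called 663 instead of 638 with FB1 in WT and 8957 instead of 9097 with FB1 in KO. For KO against WT it called 3439 instead of 3363 without FB1 and 7262 instead of 7246 with FB1. Calls over all genes at the 1.5-fold threshold were not counted, nor were unadjusted ones with the mean of probes. The members' counts there therefore have no share beside them. FB1 in WT called 381 genes instead of 638 with its 2 groups alone and 386 without WT FB1 replicate 1. The difference of the FB1 effects called 2055 genes in the main fit, 2178 with quantile normalisation, 1909 with the authors' values and 1898 with the replicate block. Without a filter it called 1258, and 59% of its calls were higher with the authors' values instead of 47.9%. No scaling moved the median of all genes by over 0.1.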
